A study of Mus musculus with 2 samples.

Results

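The 4 Hox clusters of the mouse genome were examined in a map of Oct4 chromatin that also bound the lectin sWGA, in embryonic stem cells. Of the 33783 peaks called on the sWGA library, 10 had their summit inside a cluster. HoxA on chromosome 6 (52100000 to 52220000, mm9) held 1 peak, HoxB on chromosome 11 (96050000 to 96230000) held 4, HoxC on chromosome 15 (102740000 to 102870000) held 3 and HoxD on chromosome 2 (74490000 to 74610000) held 2. A peak was taken as a member by the position of its summit alone, and tags, fold and score played no part in the choice. The clusters were fixed as these 4 windows, 550 kb in all, and no annotation of the mm9 build was used, so the windows could not be checked against gene positions and no peak is assigned to a gene.

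Both groups were made from ZHBTc4 F-Oct4, mouse embryonic stem cells in which Oct4 carries a Flag tag. The parent ZHBTc4 line is known for having both natural Oct4 alleles disrupted and Oct4 supplied by a transgene that tetracycline shuts off. What drives the tagged Oct4 in the line used here was not examined. In the sWGA group, chromatin bound by anti-Flag antibody was released and bound again by beads carrying sWGA, a lectin for N-acetylglucosamine, the sugar of the O-GlcNAc modification. In the control group the second step used control beads, which the labels name both as IgG and as plain agarose, while the title calls the sample an input. Both groups were eluted with 0.5 M N-acetylglucosamine. Chromatin was sheared to 100 to 500 bp and amplified with 18 PCR cycles in both. Each group was 1 library of 1 cell line, so no value below has a replicate error and no p-value between the groups is given. The sWGA library had 16695056 tags (aligned reads), of which 6129874 were left after filtering. The control library had 366466, of which 78351 were left. After filtering, the sWGA library was thus 78.2 times deeper, and filtering removed most tags of both libraries. The chromatin was cross-linked, and a peak therefore marks DNA that passed both steps, whichever protein there carried the sugar.

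Hox genes encode homeodomain transcription factors that give cells their position along the head to tail axis of the embryo. They lie in 4 clusters in which the order of the genes follows the order of their expression along the body, and microRNA genes of the miR-10 and miR-196 families lie among them. In embryonic stem cells the clusters are a textbook case of repression by Polycomb complexes, which mark them with H3K27me3 and keep them compact until differentiation. Oct4 is best known for binding enhancers of active pluripotency genes, and it has also been described at silent developmental regulators. Neither H3K27me3 nor RNA was measured here, so the repressed state of the clusters is background and not a result.

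The RefSeq gene table, used for names and order only because its build (GRCm38.p6) differs from that of the peaks, lists 39 protein-coding Hox genes: 11 in HoxA, 10 in HoxB, 9 in HoxC and 9 in HoxD. It also places 6 microRNA genes among them: Mir196b in HoxA, Mir196a-1 and Mir10a in HoxB, Mir196a-2 and Mir615 in HoxC, and Mir10b in HoxD. HoxA lies between Skap2 at its low-coordinate side and Evx1, itself a homeobox gene, at its high-coordinate side, where its last gene is Hoxa13. The other clusters start with their highest-numbered gene. HoxB goes from Hoxb13 down to Hoxb1 beside Skap1, HoxC from Hoxc13 (next to Calcoco1) to Hoxc4 (next to Smug1), and HoxD from Hoxd13 (next to the homeobox gene Evx2) to Hoxd1 (towards Mtx2).

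The single HoxA peak was weak. It lay at 52166570 to 52166980, was 411 bp long and held 10 tags, 1 more than the 9 of the smallest peaks in the list. Its deposited fold was 11.81, that is, the tag height at the summit over the number of tags the caller expected there, and its score was 67.11. The score is the caller's p-value as negative log10 times 10, with 50 as the limit for listing. The fold equals 6 tags at the summit over the genome-wide expectation of 0.508 tags per fragment. Peaks with at least 10 tags made up 84.0% of the list, and peaks with at least this fold 90.6%. The summit stood 66.9 kb from the low bound of the window and 53.1 kb from the high bound. The nearest other summit lay 97.6 kb away, outside the window, so the window as a whole had 1 called site. On its low side the gap to the next summit was 111 kb. Gaps at least as long as the low and high ones made up 21.3% and 24.7% of those on chromosome 6.

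HoxB held the most peaks, and 1 of its 4 was of at least 18 tags. That peak, at 96064234 to 96064930, was 697 bp long and had 23 tags and a score of 161.31, and its fold was 23.62. It was the broadest of the 10 peaks, and its summit stood 14.6 kb inside the low bound, on the side of the window where Hoxb13 comes first in the gene order. The peak at 96133112 to 96133542 had a fold of 21.65 from 14 tags and scored 104.39. The peak at 96152667 to 96152997 had a fold of 15.75 from 12 tags and scored 97.70. The peak at 96112192 to 96112586 was the weakest of the 4, scoring 68.80 at 10 tags with a fold of 15.75. From the 23-tag summit towards the Hoxb1 side the steps between summits were 47.7 kb, 21.0 kb and 19.4 kb. After the last of them a stretch of 83.5 kb without a summit ran to the high bound and 6.31 kb beyond it.

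In HoxC the 3 peaks lay within the part of the window from 24.4 to 65.6 kb above its low bound. With 24 tags the middle one, at 102793694 to 102794256, exceeded every other peak in the 4 clusters. Its fold was 31.49 and its score 193.07, and 12.4% of all peaks in the list held at least as many tags. Its neighbours on both sides held 10 tags each. The one at 102764043 to 102764505 had a fold of 17.71 and a score of 62.09, and the one at 102805294 to 102805653 had a fold of 11.81 and a score of 72.78. The strong summit was 29.7 kb from the first and 11.5 kb from the second of these. The group of 3 stood alone: 212 kb without a summit preceded it and 160 kb followed it. Most of both stretches lay outside the window, whose bounds were 187 and 95.2 kb from the summits beyond. Gaps between neighbouring summits at least that long made up 8.26% and 13.0% of the gaps on chromosome 15, whose median gap was 41.6 kb. These shares count gaps and not bases.

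HoxD held a pair of peaks 10.5 kb apart. The peak at 74569008 to 74569330 had 21 tags and the highest fold (37.39) and score (209.44) of the 10. It was also the shortest, at 323 bp, and 19 of its 21 tags (90.5%) fell at the summit height. Peaks with at least this fold made up 6.46% of the list. Its partner at 74558361 to 74558814 scored 62.91 from 10 tags, and its fold was 15.75. Stretches of 94.4 kb below and 94.7 kb above the pair held no summit. Gaps at least that long made up 25.7% and 25.4% of those on chromosome 2. Both peaks stood in the part of the window between 68.7 and 79.2 kb from its low bound, on the side of Hoxd1 in the gene order.

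**Figure D1:**
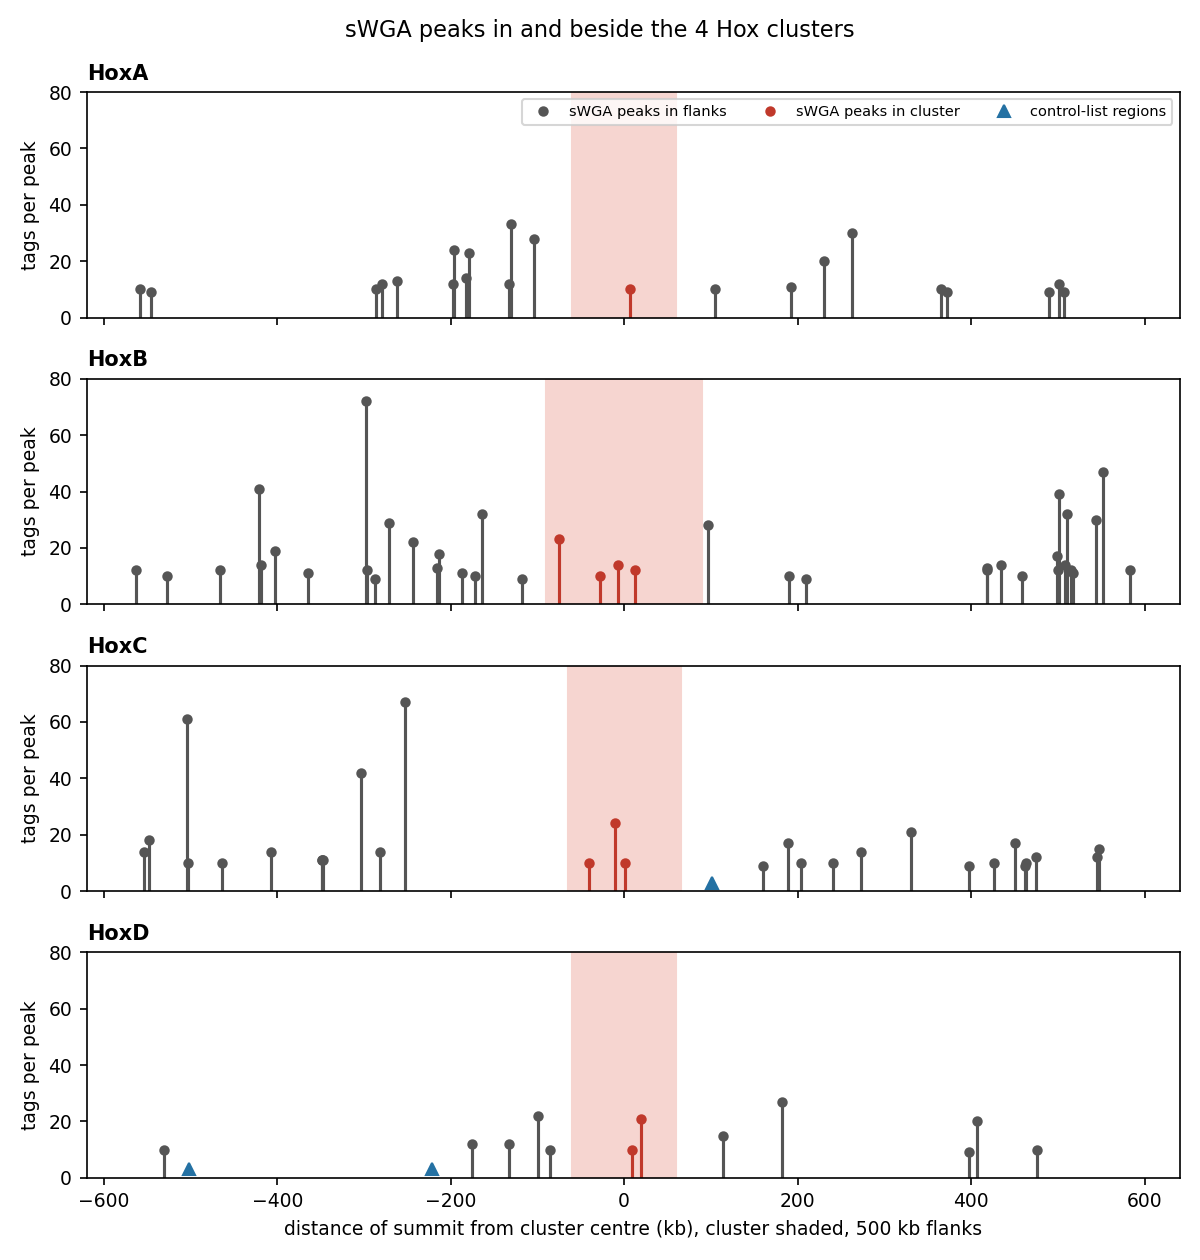
Tags per peak (vertical axis) against the distance of the summit from the centre of each Hox cluster in kb (horizontal axis), with the cluster shaded and 500 kb on both sides. Red points are the 10 sWGA peaks inside the clusters, grey points the 92 in the flanks and blue triangles regions of the control list. Peaks inside the clusters hold 10 to 24 tags, and the more numerous flank peaks reach 72.

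Over the 4 clusters together, the strength of the peaks lay near the middle of the list. The 10 peaks held 10 to 24 tags with a median of 11 (interval of the median 10 to 23), the 92 flank peaks had a median of 12, the rest of the 4 chromosomes 12 and all 33783 peaks 11. Of the 10 peaks, 3 held at least 18 tags, where 21.4% of the list did, and 6 held 9 to 12 tags, where 62.3% of the list did. A score of at least 100 was reached by 4 of the 10, against 33.9% of the list. The median fold was 16.7, ranging from 11.81 to 37.39, against 17.7 in the flanks and 15.75 over the list. A fold of at least 20 was found for 4 of 10 peaks (exact 95% interval 12.2 to 73.8%), against 23.9% of the list. The caller's FDR was at most 5% for 5 of the 10, against 55.7% of the list. Among the 10 the deposited FDR rose with the score, so a low value does not mark the stronger peaks. Those 5 were the peaks with 10 tags, at 2.53 to 3.52%. The 3 peaks with at least 18 tags had 15.74 to 24.81%. Median length was 421 bp against 419 bp. These shares describe 1 library, and with 10 peaks their intervals include the share of the list in each case.

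The strongest peak of the clusters by tags held 24, and 11.2% of the list and 16 of the 92 flank peaks (17.4%) held more. That limit is the highest value of the 10 peaks themselves, so these shares only place it in the list and nothing is read from them. The strongest flank peaks were next to HoxB and HoxC. A peak of 72 tags at 95842029 to 95842684, with a fold of 104.31, lay 208 kb below the HoxB window. A peak of 67 tags at 102552256 to 102552985, with a fold of 106.28, lay 187 kb below the HoxC window. The deposited FDR of both was 100%. The strongest near HoxA held 33 tags at 52028492 to 52029314, and the strongest near HoxD held 27 tags at 74731292 to 74731659.

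**Figure D2:**
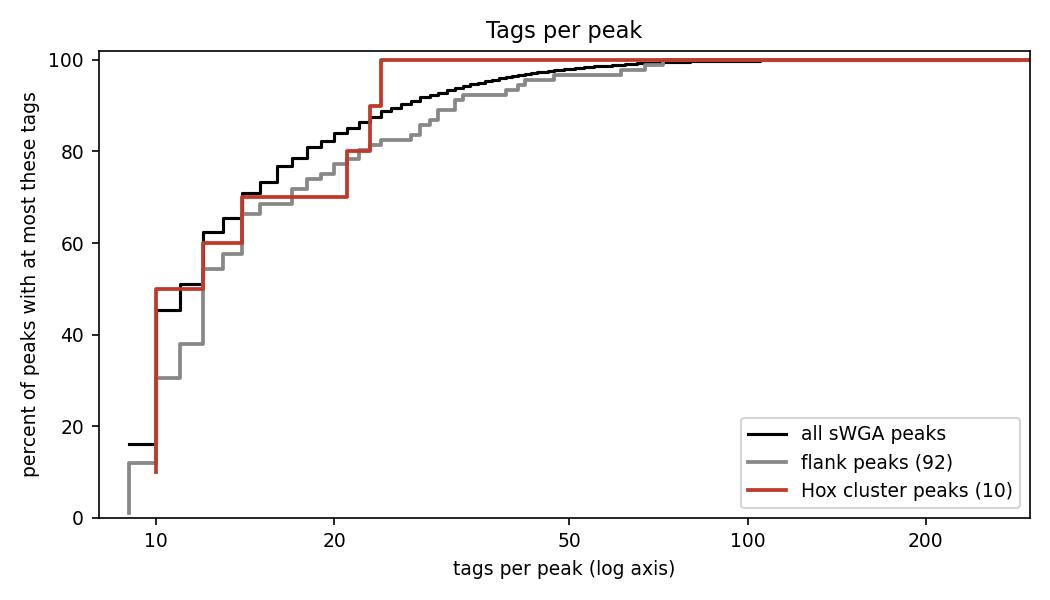
Percent of peaks (vertical axis) with at most the tags on the horizontal log axis, for all sWGA peaks (black), the 92 flank peaks (grey) and the 10 Hox cluster peaks (red). The red line starts at 10 tags, where the list already has 16.0% of its peaks at 9 tags, and reaches 100% at 24 tags. The black and grey lines, drawn from many more peaks, continue to 289 and 72.

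All 10 peaks had folds that were whole tags over the genome-wide expectation, so no control tag near them entered their fold. Of the flank peaks, 11 of 92 (exact interval 6.12 to 20.4%) and over the list 8.79% had a local background set by control tags. For 0 of 10 the exact interval reaches 30.8%, which takes in both. Height at the summit ranged from 6 to 19 tags in the clusters. The share of a peak's tags found at that height ran from 52.2% in the 23-tag HoxB peak to 90.5% in the 21-tag HoxD peak, with a median of 72.6% against 72.7% over the list. The strong HoxD peak was thus compact and the strong HoxB peak spread out, at similar tag numbers.

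Peak density was compared first with the 500 kb on either side of each window. HoxA had 8.33 peaks per Mb against 21 in its flanks, a ratio of 0.397 (exact 95% interval 0.00960 to 2.47). HoxB had 22.2 per Mb against 35.0, a ratio of 0.635 (0.164 to 1.78). HoxC had 23.1 per Mb against 26.0, a ratio of 0.888 (0.172 to 2.90), and HoxD had 16.7 against 10, a ratio of 1.67 (0.178 to 7.82). Summed over the 4 clusters, 18.2 peaks per Mb stood against 23.0, a ratio of 0.791 (0.367 to 1.52). Each interval included 1. The intervals cover the counting of peaks only and treat peaks as independent, which neighbouring peaks are not.

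Against the rest of its own chromosome the same count lay on the other side of 1 for HoxB and HoxC. HoxB had 1.33 times the density of chromosome 11 (0.361 to 3.40) and HoxC 1.81 times that of chromosome 15 (0.373 to 5.30). HoxD had 1.22 times the density of chromosome 2 (0.147 to 4.40) and HoxA 0.628 times that of chromosome 6 (0.0159 to 3.50). Together the clusters held 10 peaks where the density of their chromosomes would give 7.91, a ratio of 1.26 (0.606 to 2.32). Again each interval included 1. The flanks of HoxA, HoxB and HoxC were themselves denser than the chromosomes, at 21, 35 and 26 peaks per Mb against 13.3, 16.8 and 12.8. HoxB and HoxC thus lay between their flanks and their chromosomes, while HoxA lay below both and HoxD above both.

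**Figure D3:**
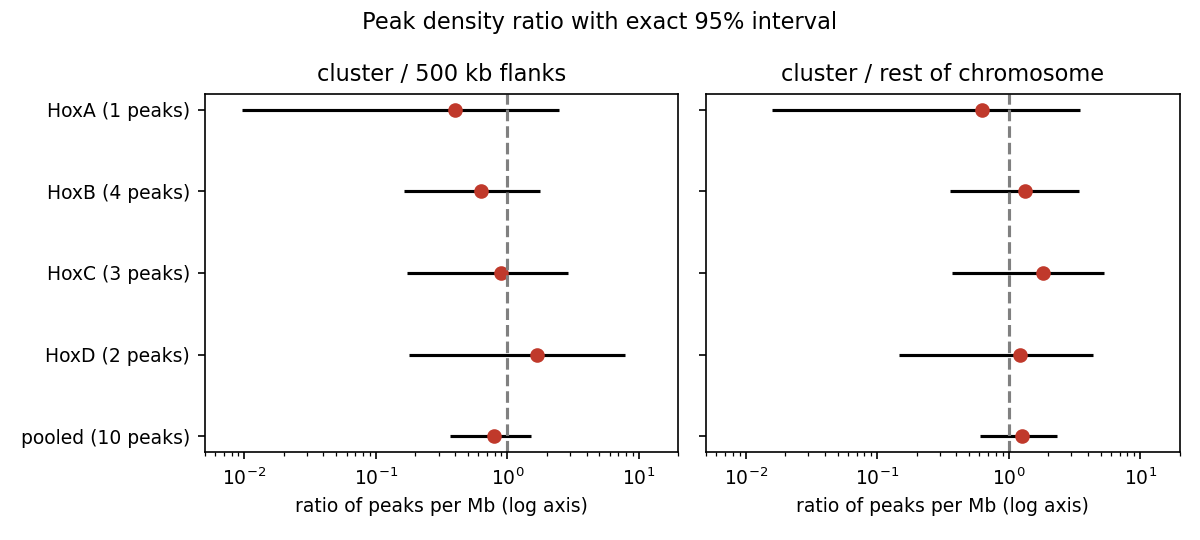
Ratio of peaks per Mb in each cluster to that in its 500 kb flanks (left) and in the rest of its chromosome (right), on a log axis, with exact 95% intervals as lines and a dashed line at 1. Every interval crosses 1, and the pooled ratios are 0.791 and 1.26.

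The density was then followed outwards in steps of 100 kb, summed over both sides of the 4 windows. Inside the windows it was 18.2 peaks per Mb (8.72 to 33.4). In the first 100 kb outside it was 18.8 (10.5 to 30.9), in the next steps 22.5, 17.5 and 23.8, and from 400 to 500 kb 32.5 (21.2 to 47.6). The intervals of all steps overlapped that of the clusters. Of the 26 peaks in the farthest step, 10 lay in the high flank of HoxB. The nearest peaks outside were 44.4 and 43.8 kb from the bounds of HoxA, 27.5 and 6.31 kb from those of HoxB, 187 and 95.2 kb from those of HoxC, and 25.7 and 53.9 kb from those of HoxD. The one 6.31 kb above HoxB, at 96235908 to 96236656, had a fold of 27.55 and 28 tags, more than any peak inside the clusters. Its place outside depends on where the HoxB window ends.

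**Figure D4:**
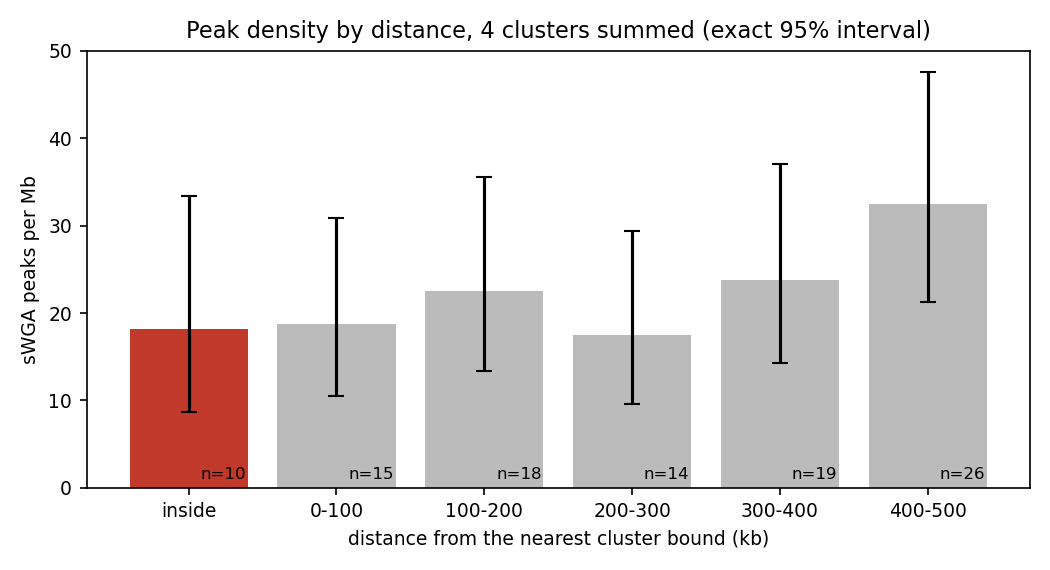
sWGA peaks per Mb (vertical axis) inside the 4 clusters (red) and in steps of 100 kb from the nearest cluster bound (grey), with exact 95% Poisson intervals and the number of peaks in each bar. The clusters, at 18.2 per Mb, are close to the first step outside, at 18.8.

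Windows of the same length tiled over the 19 autosomes show how common such counts were. At least 1 peak, as in HoxA, was found in 69.2% of windows of 120 kb, and at least 2, as in HoxD, in 41.5%. At least 4, as in HoxB, were found in 24.7% of windows of 180 kb, and at least 3, as in HoxC, in 26.0% of windows of 130 kb. The tags in peaks, summed over a window, gave the same picture. HoxA held 10 such tags, which 64.4% of windows reached, and HoxD 31, reached by 28.0%. HoxB held 59, reached by 20.8%, and HoxC 44, reached by 20.3%. No cluster was rare among windows of its size by either measure. Stretches to which no read can be aligned were not left out of the tiling, and 30.8% of the 120 kb windows held no peak. Such stretches can lower the background against which a cluster is read.

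**Figure D5:**
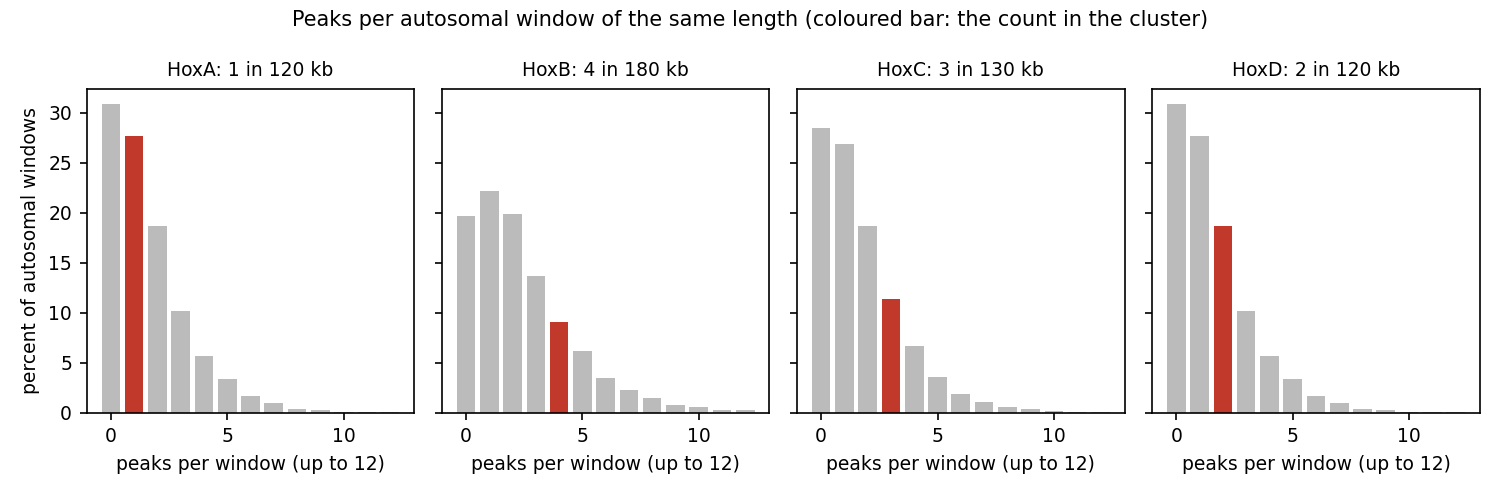
Percent of autosomal windows (vertical axis) by the number of sWGA peaks in the window (horizontal axis, shown up to 12), with windows as long as each cluster. The red bar is the number found in the cluster: 1 in HoxA, 4 in HoxB, 3 in HoxC and 2 in HoxD.

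In tags per kb the 4 clusters summed lay between their flanks and their chromosomes, but single clusters did not all do so. The 10 peaks held 144 tags over 550 kb, or 0.262 per kb, with 4.43 kb (0.805%) of the windows covered by peaks and a mean of 14.4 tags per peak. The flanks held 0.401 tags per kb, with 1.08% covered and a mean of 17.4 tags per peak. The rest of the 4 chromosomes held 0.219 per kb, with 0.616% covered and a mean of 15.5. HoxA, at 0.0833 tags per kb, was below both its flanks (0.320) and its chromosome (0.200). HoxB, at 0.328, lay between its flanks (0.678) and its chromosome (0.273), as did HoxC, at 0.338 between 0.458 and 0.190. HoxD, at 0.258, was above both its flanks (0.147) and its chromosome (0.214). HoxA was thus the lowest of the 4 by peaks per Mb and by tags per kb. With 1 peak in HoxA and 1 library, the order of the clusters was not tested.

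The 10 peaks had few close neighbours by one distance and an ordinary number by a slightly longer one. The shortest distance from a member to any other summit was 10.5 kb, so 0 of 10 had another summit within 10 kb (exact interval 0 to 30.8%). Over the list 38.0% had one, and in the flanks 45 of 92 (48.9%) did. The distance of 10 kb was that already used to join peaks, but the comparison was chosen after the values were seen, and 10 kb is just under the shortest distance observed. Within 12 kb, 4 of the 10 had another summit, near the 41.9% of the list and the 48 of 92 in the flanks (52.2%). The median distance to the nearest summit was 19.4 kb in the clusters, 11.1 kb in the flanks and 17.1 kb over the list. When peaks within 10 kb were joined and counted as 1 site, the clusters still had 10 sites and the flanks 66 instead of 92 peaks. The pooled ratio to the flanks then moved to the other side of 1, at 1.10 (0.505 to 2.16). This reversal has the same limit: 10 kb is just under the shortest distance between members, so none of them were joined. Longer joining distances were not tried.

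The control list, in which the 2 libraries swap roles in the caller, had no region in any of the 4 clusters. A count of 0 allows up to 3 regions, or 5.45 per Mb, and evenly spread control regions on these chromosomes would give 0.183. The flanks held 3 control regions of 3 tags each: 1 beside HoxC, 36.8 kb above the window at 102906722 to 102906909, and 2 beside HoxD. Each had a deposited score of 3100, which is also the highest score in the sWGA list. At this depth of the control library the background of single cluster peaks was not measurable, and as either library was the caller's background for the other list, shared sites cannot be read.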

How the data were processed

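One sWGA library and 1 control library were compared as peak lists. Per the file headers, the authors ran MACS 1.4.1 on the sWGA library against the control at a p-value of 1e-05, with 155 bp fragments, a 1870 Mb effective genome, local windows of 1 kb and 10 kb and the smaller library scaled up. At most 2 tags per position were kept for sWGA and 1 for the control. Coordinates are mm9, per the submitters' processing notes, and the aligner is not given in the sources used here. By its name, and lacking header lines, the control list is the negative list of that run. Tags in the deposited lists are whole, unscaled counts. The authors' score is the p-value as negative log10, multiplied by 10. The fold, as deposited, is a ratio to the expected tags, and the deposited FDR is a percent from the caller.

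Summits were placed at start plus summit minus 1. Density ratios have exact (Clopper-Pearson) 95% intervals on the share of peaks in the cluster, and the pooled ratio to chromosomes has an exact Poisson interval with the expectation taken as fixed. A ratio was called when its interval excluded 1. Chromosome length was the end of the last region listed, and stretches to which no read can be aligned were not left out. Intervals of medians are from order statistics, those of shares are Clopper-Pearson, and all cover counting error only. Folds were read as whole tags over an expectation, within 0.01 tags or the rounding of the fold. The interval step was checked, for the pooled ratios only, on simulated peaks placed independently along each chromosome. Real peaks often have close neighbours, so the check does not show that the intervals hold for them or for single clusters. Software was Python 3.11.15 with scipy 1.17.1, numpy 2.4.6, matplotlib 3.10.9 and pandas 2.3.3. All 10 peaks are named, with the strongest flank peak of each cluster. The nearest flank peaks were named after their values were seen. The clusters, lists and tests were chosen with earlier results of these data known. The Polycomb target and component genes planned for an mm9 annotation were not used here, and no sequence is printed, since the sequences at hand are of another build.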

Additional observations from a re-analysis of the deposited data

How the results depend on the processing

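No paired analysis was possible because the sWGA and control groups are single libraries, which also leaves no replicate to drop. Of 90 alternative values, 79 kept their direction and call or, for medians and shares, stayed within the interval of the main value or close to it, 9 reversed and 2 moved. The interval of the medians is wide, and those 79 include the medians at a score of at least 100 given below. All density intervals included 1 under each alternative, so each reversal is of a ratio that was not called. With peaks within 10 kb joined, the pooled ratio to the flanks went from 0.791 to 1.10, HoxB to 1.01 and HoxC to 1.15. Fewer flank sites are counted there, while no cluster peaks are joined, as 10 kb is just under the shortest distance between them. Longer joining distances were not tried. With an FDR of at most 5% the ratio of HoxC to its flanks was 1.03, that of HoxA to its chromosome 1.10 and that of HoxB 0.636. This limit is not a stricter list, since the weaker cluster peaks pass it. In HoxB it kept the peak of 10 tags and dropped those of 23, 14 and 12 tags. The ratio of HoxC to its flanks was 1.54 with at least 18 tags and 1.44 with flanks of 250 kb, for which the cause was not tested. The ratio of HoxD to its chromosome was 0.913 with bounds widened by 20 kb. There the counts stayed at 2 and 2487 peaks, and only the lengths changed. Leaving out each cluster in turn gave pooled ratios of 0.681 (without HoxD) to 0.884 (without HoxA) to the flanks and 1.12 (without HoxC) to 1.42 (without HoxA) to the chromosomes. With a score of at least 100, 4 peaks were left, 0 of them in HoxA, the median tags rose from 11 to 22, the median fold from 16.7 to 27.6, and the tags per kb went from 0.262 to 0.149, since fewer peaks are summed. Control regions numbered 0 in the clusters and 3 with the summit within 500 kb. With 1 to 4 peaks in a cluster, the counts limit what can be seen: the pooled interval to the flanks leaves room for any ratio from 0.367 to 1.52.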
